A study of Homo sapiens with 16 samples.

Results

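The comparison set day 6 against day 1 in human HEK-293 cells that make HCF-2 Fn3nc*, a mutant form of host-cell factor 2. It took 4 of the 16 RNA-seq libraries of the study, 2 on each day, chosen by the day and the transgene in their labels, and 18925 of the 57820 genes in the table, those with an FPKM (fragments per kilobase, scaled to library depth) above 1 in at least 1 of the 16 libraries. The parental line is Flp-In T-REx-HEK-293, an established human embryonic kidney line with a docking site for a transgene under a tetracycline-controlled promoter. Both groups carried F-Cherry-HCF-2 Fn3nc*, that is HCF-2 with a Flag tag and the fluorescent protein Cherry and with the changes W377A in the Fn3n element and V653E in the Fn3c element. Both had doxycycline (1 µg/ml in the treatment protocol, 1 µl/ml in the design text) in a medium with tetracycline-free serum, and they differed in its duration of 1 or 6 days. A second line with the transgene F-Cherry-HCF-2 WT and the same days gave the other 8 libraries. Every library came from induced cells, so day 1 was not an untreated state, and no library of cells without a transgene or without doxycycline was analysed here. The cells of each line were selected in hygromycin, all RNA was extracted at the same time, and the 2 libraries of a group are called duplicates without word of separate cultures. The p-values therefore measure the spread between these libraries, which may be technical.

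HCF-2 is the smaller paralog of HCF-1, a chromatin-associated coregulator that brings histone-modifying enzymes to promoters and that cells need for proliferation. The 2 proteins share an N-terminal Kelch domain, a propeller-shaped docking surface for transcription factors, and a pair of Fn3 repeats. In HCF-1 the Fn3 repeats hold together the N- and C-terminal subunits that arise by proteolytic cleavage. HCF-2 is not cleaved in this way and is found to a large extent in the nucleolus, the site of ribosomal RNA synthesis. In the study the changes in Fn3nc* disrupted this nucleolar location, and the mutant inhibited proliferation less than the WT form.

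The day 1 libraries held 31006448 and 30736213 counts and the day 6 libraries 20912470 and 20270033, so that day 1 was sequenced more deeply. A count above 0 was seen for 31028 and 31080 genes on day 1 and for 27994 and 27383 genes on day 6. Levels are given as CPM, counts scaled to library depth, after TMM scaling over the 8 Fn3nc* libraries, in the order replicate 1 and replicate 2. In a principal component analysis of these 8 libraries the first component took 54.9% of the variance and placed day 1 at -34.31 and -35.22, day 2 at -4.756 and -9.074, day 4 at 19.41 and 19.29, and day 6 at 20.64 and 24.02. The days thus followed their order on this component, with wide gaps between days 1 and 2 and between days 2 and 4, and the libraries of days 4 and 6 close together. The comparison of day 6 with day 2, which does not use the day 1 libraries, is given with the course.

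More genes fell than rose, and the falls were deeper. Calls were made with the quasi-likelihood test of edgeR, for genes whose Benjamini-Hochberg adjusted p over all 18925 genes was under 0.05 and whose log2 fold change passed 0.5 in either direction. On day 6, 1683 genes were higher (8.89% of those tested) and 2920 were lower (15.4%) than on day 1. With a filter on the mean FPKM above 1 instead, 1687 were higher and 2341 lower of 15117 tested. Of the lower genes 1325 changed by more than 1 on the log2 scale, 459 by more than 2 and 190 by more than 3, against 202, 25 and 17 of the higher genes. These numbers include genes at 0 on one of the days, whose fitted fold changes depend on the prior count. They also include genes that passed the FPKM filter only through libraries where they were high, and they were not tallied with other filters. Both day 6 libraries lay below both day 1 libraries for all 2920 lower genes, and above them for 1681 of the 1683 higher genes. Over all genes tested the day 6 libraries were both higher for 35.44%, both lower for 36.97% and overlapping with day 1 for 27.59%. The summed level of the 2920 lower genes went from 201750 to 112247 CPM, and that of the 1683 higher genes from 51990 to 81837 CPM. The median log2 fold change over all genes tested was 0.00. In bulk samples fewer cells of a kind and less RNA per cell cannot be told apart, and the part of the depth difference between the days in these changes was not tested.

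**Figure D1:**
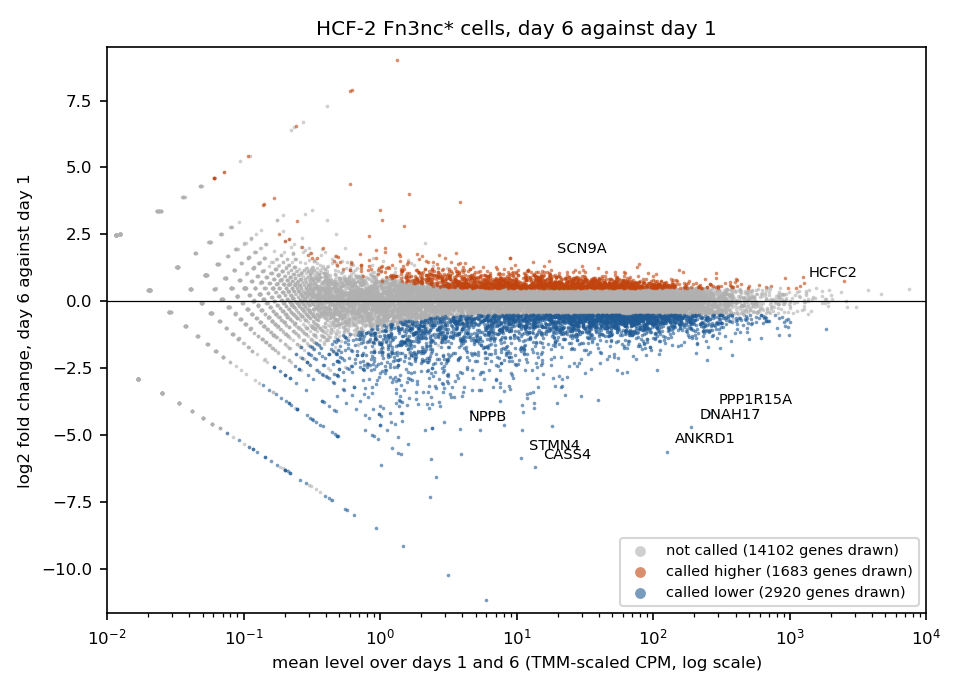
Each point is 1 gene tested in HCF-2 Fn3nc* cells, with its mean level over the 4 libraries of days 1 and 6 (TMM-scaled CPM, log axis) against its log2 fold change on day 6. The called falls (2920 genes) reach below -5, while the called rises (1683 genes) mostly stay under 2.

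HCFC2 itself was read first, because its counts can hold reads of the transgene as well as of the endogenous gene. HCFC2 (ENSG00000111727, chr12:104458309-104500302, plus strand in GRCh37) stood at 939.8 and 953 CPM on day 1, 1389.6 and 1348 on day 2, 1443 and 1514 on day 4 and 1431 and 1416 on day 6 (log2 fold change 0.59, SE 0.06, adjusted p = 2.74e-05 for day 6 against day 1). It was higher on each later day than on day 1, with no overlap. In the line with the WT transgene its mean went from 912 to 1274 CPM (log2 fold change 0.48), and the test of the difference between the 2 responses gave an adjusted p of 0.319. HCFC1, which encodes HCF-1, had 260.0 and 272 CPM on day 1 and 254 and 208 on day 6 (log2 fold change -0.20, SE 0.10, adjusted p = 0.144). OGT, the O-GlcNAc transferase that cleaves HCF-1, had 345 and 352 and 383 and 384 CPM (log2 fold change 0.14, SE 0.06, adjusted p = 0.105). Neither HCFC1 nor OGT was called.

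The falls were led by genes that were high in both day 1 libraries and low in both day 6 libraries. PPP1R15A (ENSG00000087074, chr19:49375469-49379316, plus strand), the stress-induced subunit that directs protein phosphatase 1 to eIF2α, stood at 481 and 504 CPM on day 1 and at 26.9 and 28.4 on day 6 (log2 fold change -4.16, SE 0.09, adjusted p = 1.16e-08). ANKRD1 (ENSG00000148677, chr10:92671853-92680844, minus strand), a muscle ankyrin-repeat protein and well-known YAP target, stood at 246 and 245 CPM and then at 3.6 and 6.42 (log2 fold change -5.62, SE 0.22, adjusted p = 1.01e-07). DNAH17 (ENSG00000187775, chr17:76419778-76573478, minus strand), a heavy chain of the dynein of motile cilia, stood at 354 and 376 and then at 16 and 12 CPM (log2 fold change -4.70, SE 0.15, adjusted p = 3.01e-08). The duplicates of each day lay close together and far from those of the other day. DNAH17-AS1, its antisense gene, fell as well (log2 fold change -4.62, SE 0.20, adjusted p = 1.43e-07), but whether the counting used strand was not stated, so that reads of the pair cannot be told apart.

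CASS4 (ENSG00000087589, chr20:54987168-55035443, plus strand), a scaffold of the Cas family at focal adhesions, had the largest fitted fall of the named genes with reads on both days, from 26.7 and 27.2 CPM to 0.468 and 0.247 CPM (log2 fold change -6.20, SE 0.22, adjusted p = 7.22e-08). STMN4, a microtubule regulator of the stathmin family, fell from 20.9 and 21.3 CPM to 0.468 and 0.247 CPM (log2 fold change -5.86, SE 0.22, adjusted p = 7.97e-08). NOS3 (ENSG00000164867, chr7:150688105-150711676, plus strand), the endothelial nitric oxide synthase, fell from 9.58 and 11.2 CPM to 0.281 and 0.444 CPM (log2 fold change -4.83, SE 0.26, adjusted p = 4.9e-07). These 3 genes stood below 0.5 CPM by day 6. DNAH12, another axonemal dynein heavy chain, fell from 7.83 and 7.6 CPM to 0.187 and 0.0988 CPM (log2 fold change -5.69, SE 0.33, adjusted p = 7.88e-07). NPPB, the B-type natriuretic peptide of the heart, fell from 7.13 and 7.66 CPM to 0.14 and 0.395 CPM (log2 fold change -4.78, SE 0.31, adjusted p = 1.67e-06). IGSF21, a synaptic adhesion protein, fell from 11.2 and 12.4 CPM to 0.608 and 0.691 CPM (log2 fold change -4.18, SE 0.33, adjusted p = 5.4e-06). Among the 15 largest falls were also SMC1B, the meiotic cohesin subunit (log2 fold change -4.09), TINCR, a long noncoding RNA of the epidermis (-3.99), and LSMEM1 (-3.81). NPIPB6 (-4.82) and NPIPB9 (-3.89) belong to a family of nearly identical copies, and their values are uncertain because reads could be split among them.

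**Figure D2:**
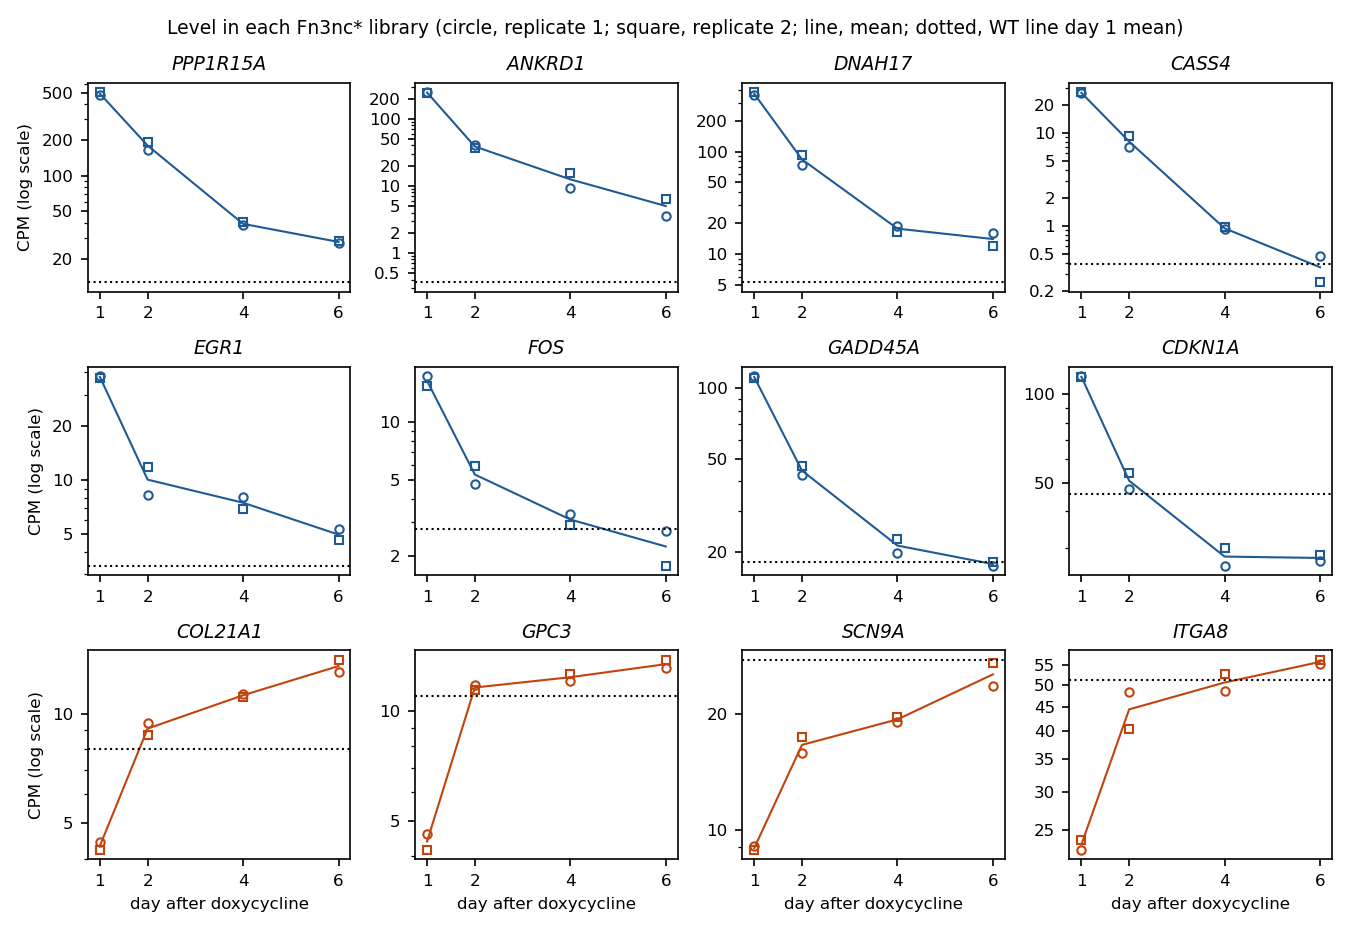
Each panel gives 1 gene, with TMM-scaled CPM (log axis) against the day after doxycycline in the 8 Fn3nc* libraries, a point per library. PPP1R15A went from 481 and 504 CPM on day 1 to 38.2 and 40.4 on day 4 and 26.9 and 28.4 on day 6, and COL21A1 from 4.44 and 4.24 to 13 and 14.

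Over all 57820 genes in the table, 24 were counted in both day 1 libraries and at 0 in both day 6 libraries, at a mean count of at least 10, and 1 gene the other way round. Some, such as LTA, were tested and are part of the called genes above. Others, such as ANPEP and RHAG, did not pass the FPKM filter and were not tested. LTA, the cytokine lymphotoxin alpha, had 186 counts in each day 1 library, 51 and 59 on day 2, 3 and 3 on day 4 and none on day 6. Against a floor of 3 counts over the 2 libraries of day 6 this was at least 82.7-fold lower. ANPEP, aminopeptidase N, went from 28 and 40 counts to 0 in both (at least 15.1-fold lower), and RHAG, an ammonia channel of red cells, from 25 and 16 to 0 (at least 9.12-fold lower). The clone-named gene RP11-514P8.6 had no count on day 1 and 75 and 36 counts on day 6. Because day 6 was sequenced less deeply, a low count on day 1 has a lower chance of being seen on day 6.

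Most transcription factors and feedback genes of the immediate-early class, which cells switch on within minutes to hours of a stimulus, were lower on day 6. Of 36 members of the list tested, 26 were lower and 1 was higher, or 72.2% lower against 15.4% of all genes, with a median log2 fold change of -1.14. EGR1, a zinc finger factor induced through SRF, fell from 38 and 37.3 CPM to 5.33 and 4.64 CPM (log2 fold change -2.91, SE 0.16, adjusted p = 4.88e-07). FOS, a subunit of AP-1, fell from 17.4 and 15.5 CPM to 2.71 and 1.78 CPM (log2 fold change -2.87, SE 0.19, adjusted p = 1.74e-06). FOSL1, another AP-1 subunit, fell from 6.18 and 6.29 CPM to 0.982 and 0.593 CPM (log2 fold change -2.97, SE 0.29, adjusted p = 2.07e-05). In each of these genes the 2 days were far apart and the duplicates close. MAFF, a small MAF factor, fell from 8.13 and 8.94 CPM to 1.17 and 0.543 CPM (log2 fold change -3.30, SE 0.31, adjusted p = 1.82e-05). MYC was the member that rose, from 34.8 and 31.6 CPM to 76.4 and 66.7 CPM (log2 fold change 1.11, SE 0.08, adjusted p = 3.34e-06). The count of lower members was 25 to 27 over all alternative settings. With day 2 in place of day 1 the median was -0.29 and 12 members were lower, against 2.22% of all genes. In the WT line, 20 of the 36 were higher and 2 lower on day 6 (13.2% and 8.04% of all genes), with a median of 0.53. By the test of the difference between the lines, the Fn3nc* response was lower for 32 of the 36 and higher for none (20% and 16.1% of all genes).

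The promoters of 4 genes with deep falls are shown, chosen after their matches were seen, because each holds in the 250 bases before its start a motif of a factor known to act on genes of its class. Sequences and coordinates are from RefSeq on GRCh38.p14, given 5′ to 3′ on the strand of the gene, with the motif matches in capitals. They are the CArG box bound by SRF in EGR1 (chr5:138465359-138465478, plus strand), the cyclic AMP response element TGACGTCA bound by CREB and ATF factors in PPP1R15A (chr19:48872301-48872420, plus strand) and MAFF (chr22:38201874-38201993, plus strand), and GGAATG bound by TEAD factors in ANKRD1 (chr10:90921088-90921317, minus strand).
EGR1: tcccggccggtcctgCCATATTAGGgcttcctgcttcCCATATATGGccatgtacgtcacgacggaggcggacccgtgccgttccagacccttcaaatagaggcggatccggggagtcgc
PPP1R15A: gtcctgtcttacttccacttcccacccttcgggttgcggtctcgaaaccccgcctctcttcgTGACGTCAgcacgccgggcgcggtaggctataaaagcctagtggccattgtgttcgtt
MAFF: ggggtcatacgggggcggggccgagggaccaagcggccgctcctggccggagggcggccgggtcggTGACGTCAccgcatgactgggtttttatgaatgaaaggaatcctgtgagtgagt
ANKRD1: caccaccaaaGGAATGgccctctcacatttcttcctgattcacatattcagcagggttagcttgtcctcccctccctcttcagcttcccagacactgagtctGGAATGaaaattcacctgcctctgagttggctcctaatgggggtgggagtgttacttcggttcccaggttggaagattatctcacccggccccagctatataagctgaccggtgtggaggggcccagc

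The EGR1 stretch held 2 CArG boxes and the ANKRD1 stretch 2 TEAD motifs. Over the genes with a promoter in the table, both strands searched, TGACGTCA was found in 78 of 1757 promoters of lower genes (4.44%), 16 of 1128 of higher genes (1.42%) and 298 of 10343 of all tested (2.88%). GGAATG was found in 10.1%, 9.04% and 9.27%, and the CArG box in 1.02%, 0.532% and 0.918%. CCGGAAG, a core motif of ETS factors, was found in 18.1% of promoters of lower genes, 8.16% of higher genes and 15.3% of all. Other motifs were searched too, and not all are reported here. The E-box was found in 8.76%, 7.71% and 8.8%, and the motif of ZNF143 and THAP11 in 8.03%, 6.83% and 8.19%. Of the 26 immediate-early genes that were lower, 22 had a promoter in the table. Of these 3 held TGACGTCA, 2 GGAATG, 1 the CArG box, 1 CCGGAAG, 5 the E-box and 0 the motif of ZNF143 and THAP11. These shares describe letters in a window and not binding.

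Most of the genes known as p53 targets were lower too. Of 30 tested, 18 were lower and 1 was higher, or 60.0% and 3.33% against 15.4% and 8.89% of all genes, with a median log2 fold change of -0.72. GADD45A, a growth-arrest and DNA-damage gene, fell from 112 and 110.5 CPM to 17.4 and 18 CPM (log2 fold change -2.65, SE 0.08, adjusted p = 3.01e-08). CDKN1A, the cyclin-dependent kinase inhibitor p21, fell from 115 and 114 CPM to 27.1 and 28.5 CPM (log2 fold change -2.04, SE 0.09, adjusted p = 1.38e-07). AEN, a nuclease of apoptosis, fell from 401 and 405 CPM to 87.4 and 88.5 CPM (log2 fold change -2.20, SE 0.06, adjusted p = 2.74e-08). No day 6 library of the 3 came near a day 1 library. DDB2, the damage-recognition subunit of nucleotide excision repair, had a log2 fold change of -2.17, and PHLDA3, an AKT repressor, one of -2.09. In the WT line the median of the list was 0.10, with 6 members higher and 5 lower (13.2% and 8.04% of all genes). The Fn3nc* response was lower for 19 of the 30 and higher for 3, where 20% and 16.1% of all genes passed that test.

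Other stress lists moved unevenly, and several of their shares lay near those of all genes, 8.89% higher and 15.4% lower. In the list of ATF4 and the integrated stress response, in which eIF2α phosphorylation favours translation of ATF4, 8 of 39 were higher (20.5%) and 6 lower (15.4%, the same as over all genes), with a median of 0.22. ATF4 (ENSG00000128272, chr22:39915700-39918688, plus strand) fell from 1166 and 1187 CPM to 479 and 503 CPM (log2 fold change -1.26, SE 0.06, adjusted p = 3.41e-07) and DDIT3, the factor CHOP, fell from 39 and 38.2 CPM to 11.7 and 10.6 CPM (log2 fold change -1.79, SE 0.09, adjusted p = 3.65e-07). SLC7A11, the cystine transporter, rose from 29.1 and 28.6 CPM to 56.2 and 55.8 CPM (log2 fold change 0.96, SE 0.09, adjusted p = 1.88e-05), as did PYCR1, of proline synthesis (log2 fold change 0.95), and SLC6A9, a glycine transporter (1.11). The factors ATF4 and DDIT3 were thus lower while the transporters and PYCR1 were higher. Of 29 genes of the NF-κB pathway 7 were lower (24.1%), among them the inhibitor TNFAIP3 (-2.37) and the subunits NFKB2 (-1.73) and RELB (-1.81), and 2 were higher (6.9%, below the share of all genes). Of 23 heat shock genes 5 were lower (21.7%) and none was higher, although 1 was without replicate 1 of day 6. The small heat shock protein HSPB8 fell from 41.2 and 42.2 CPM to 3.88 and 3.51 CPM (log2 fold change -3.49, SE 0.11, adjusted p = 3.87e-08). The unfolded protein response had 2 higher (6.25%) and 1 lower (3.12%) of 32, both below the shares of all genes, with 4 higher without replicate 1 of day 6 and 1 without replicate 2 of day 6. In the NRF2 antioxidant list 6 of 23 were higher (26.1%), with heme oxygenase HMOX1 going from 11.9 and 11.8 CPM to 17.4 and 19.5 CPM (log2 fold change 0.64, SE 0.09, adjusted p = 0.000326), and 2 were lower (8.7%), OSGIN1 (-3.09) and the autophagy receptor SQSTM1 (-0.97).

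The lists of the actin cytoskeleton and of YAP/TAZ targets were read against the 15.4% lower and 8.89% higher of all genes. Of 34 genes of the SRF and actin list 9 were lower (26.5%) and none was higher, and ACTA2, smooth muscle actin, fell from 41.3 and 40.9 CPM to 5.61 and 6.07 CPM (log2 fold change -2.81, SE 0.10, adjusted p = 6.84e-08). ZYX, zyxin of focal adhesions, had a log2 fold change of -1.46. Of 26 YAP/TAZ targets 6 were lower (23.1%) and 2 higher (7.69%, close to the share of all genes). CYR61 and CTGF encode secreted matricellular proteins. CYR61 fell from 50.7 and 54.5 CPM to 12.7 and 14.3 CPM (log2 fold change -1.96, SE 0.11, adjusted p = 4.88e-07), and CTGF fell from 23.2 and 20.8 CPM to 7.02 and 8.3 CPM (log2 fold change -1.52, SE 0.14, adjusted p = 1.8e-05). CTGF fell late, since it stood at 20.5 and 18 CPM on day 2 and 19.3 and 24.7 on day 4. CYR61 had 31.4 and 31 CPM on day 2 and 24.7 and 30.3 on day 4, between the levels of days 1 and 6.

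Part of the cell cycle machinery was lower, at shares to be set against 15.4% lower and 8.89% higher over all genes. Of 55 DNA replication genes 19 were lower (34.5%) and none was higher (median log2 fold change -0.28), and of 59 mitosis genes 17 were lower (28.8%) and 1 was higher (1.69%, median -0.18). CDT1, which loads the replicative helicase at origins, fell from 234 and 229 CPM to 72.8 and 71.5 CPM (log2 fold change -1.68, SE 0.07, adjusted p = 1.79e-07). MCM2, a subunit of that helicase, fell from 547 and 560.0 CPM to 242 and 243 CPM (log2 fold change -1.19, SE 0.06, adjusted p = 3.91e-07). The polymerase subunit POLA1 (-1.15), the origin recognition subunit ORC1 (-1.06) and MCM7 (-0.79) fell with them. In mitosis the hyaluronan-mediated motility receptor HMMR (-1.17), the condensin subunit NCAPG (-1.06), the kinesin KIF15 (-1.03) and the spindle midzone protein PRC1 (-1.02) were lower, and the kinetochore subunit SPC24 was higher (0.57). Among 73 DNA repair genes 18 were lower (24.7%), such as PARP2 (-1.75), MDC1 (-1.69) and the checkpoint kinase CHEK1 (-1.10), and only LIG3, a DNA ligase, was higher (0.71). The list of cyclins, CDK inhibitors and E2F factors held 10 lower (33.3%) and 4 higher (13.3%) of 30, so that both shares were above those of all genes, with E2F2 lower (-1.41) and E2F1 higher (0.75). Of 70 replication-dependent histone genes 31 were lower (44.3%) and 6 higher (8.57%). Their transcripts lack a poly(A) tail for the most part and so are captured poorly by poly(A) selection, and 22 to 32 were lower over the alternatives. In the WT line 28 of the 70 histone genes were lower and 0 higher (median -0.55), against 8.04% and 13.2% of all genes. There 9 of 55 DNA replication genes were lower and 2 higher, 9 and 1 of 73 DNA repair genes, and 1 and 0 of 59 mitosis genes.

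Genes that handle RNA were lower in larger numbers than higher. None of 78 splicing factors was higher and 28 were lower (35.9%, against 8.89% higher and 15.4% lower of all genes), with a median log2 fold change of -0.38. CLK1, a kinase of SR proteins, fell from 173 and 178 CPM to 64.9 and 62.2 CPM (log2 fold change -1.47, SE 0.09, adjusted p = 1e-06), and the SR protein SRSF6 fell from 591 and 587 CPM to 267 and 268 CPM (log2 fold change -1.14, SE 0.06, adjusted p = 2.94e-07). The hosts of small nucleolar RNAs had 8 lower (44.4%) and none higher of 18. SNHG15, one of these hosts, fell from 174 and 177 CPM to 49.7 and 49.9 CPM (log2 fold change -1.82, SE 0.07, adjusted p = 8.39e-08). Ribosome biogenesis had 23 lower (28.0%) and 1 higher (1.22%) of 82, with RRN3, the factor that brings RNA polymerase I to ribosomal DNA, at 263 and 264 CPM on day 1 and 103 and 106 on day 6 (log2 fold change -1.34, SE 0.06, adjusted p = 1.66e-07). The member that rose was PWP2 (0.66), of the small-subunit processome. In the WT line 23 of the 78 splicing factors were lower on day 6 and 2 higher (median -0.31). Of the 82 ribosome biogenesis genes 22 were lower there and 0 higher (median -0.34, against -0.18 in Fn3nc* cells). Of the 18 hosts 1 was lower and 5 were higher. Over all genes 8.04% were lower and 13.2% higher in the WT line.

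Zinc finger genes of the KRAB class and related ones, many of them repressors of transposons, formed the largest list, with 155 lower and 18 higher of 479, or 32.4% and 3.76% against 15.4% and 8.89% of all genes, and a median of -0.26. ZNF34 fell from 37.1 and 39.5 CPM to 4.63 and 3.56 CPM (log2 fold change -3.22, SE 0.15, adjusted p = 2.11e-07). Members share much sequence, so single values may be affected by how reads were split. In the WT line 57 of the 479 were lower and 34 higher, against 8.04% and 13.2% of all genes. Of 41 HCF proteins and partners 8 were lower (19.5%) and 4 higher (9.76%), close to the shares of all genes, and their median of -0.06 was close to 0. The members called are given as single genes. THAP1, a THAP-domain factor that binds HCF-1, fell from 74.5 and 72.8 CPM to 23.4 and 22.7 CPM (log2 fold change -1.68, SE 0.07, adjusted p = 1.66e-07), and KMT2A, a histone H3 lysine methyltransferase, fell from 400.1 and 421 CPM to 216 and 206 CPM (log2 fold change -0.96, SE 0.07, adjusted p = 4.29e-06). ZNF143 (-0.79) and the coactivator PPARGC1A (-1.49) were lower too, and THAP7 was higher (0.59).

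Measured in CPM, the largest falls were in abundant transcripts. BRD2, a bromodomain reader of acetylated histones, stood at 1391 and 1386 CPM on day 1 and 596 and 560.1 on day 6 (log2 fold change -1.26, SE 0.07, adjusted p = 3.78e-07). EIF5, which acts with eIF2 in start codon selection, stood at 889.9 and 883 and then 348 and 345 CPM (log2 fold change -1.36, SE 0.06, adjusted p = 1.92e-07). In both genes the day 6 libraries lay well below the day 1 libraries. The RNA-binding proteins SON (-0.95), SFPQ (-0.91) and DHX9 (-0.77) and the ubiquitin ligase UBR4 (-0.99) were among the 10 largest falls in CPM as well.

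**Figure D3:**
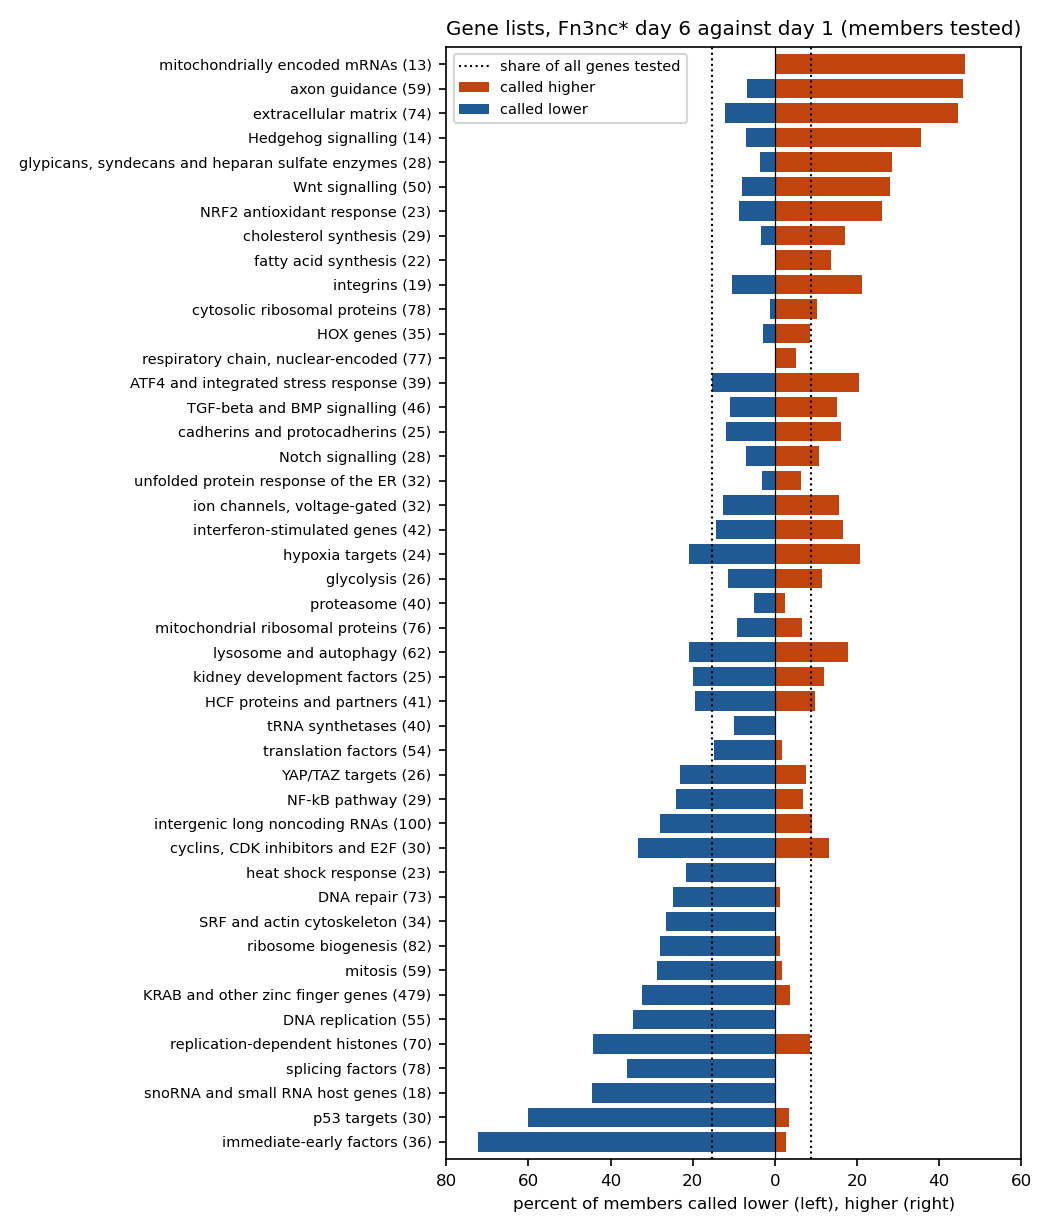
For each gene list, bars give the percentage of members tested that were called lower (left) or higher (right) on day 6 against day 1 in Fn3nc* cells. Immediate-early factors reach 72.2% lower, while the extracellular matrix and axon guidance lists lean to the right.

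The rises were smaller than the falls. COL21A1 (ENSG00000124749, chr6:55921388-56258892, minus strand), a fibril-associated collagen, rose from 4.44 and 4.24 CPM to 13 and 14 CPM (log2 fold change 1.64, SE 0.11, adjusted p = 2.12e-06). GPC3 (ENSG00000147257, chrX:132669773-133121127, minus strand), a glypican of the cell surface, rose from 4.6 and 4.17 CPM to 13.1 and 13.8 CPM (log2 fold change 1.62, SE 0.11, adjusted p = 2.02e-06). SCN9A (ENSG00000169432, chr2:167051695-167232511, minus strand), a voltage-gated sodium channel of sensory neurons, rose from 9.04 and 8.87 CPM to 23.6 and 27.1 CPM (log2 fold change 1.498, SE 0.10, adjusted p = 1.67e-06). Both day 6 libraries were above both day 1 libraries for all 3. ITGA8, the integrin alpha subunit of kidney development, rose from 22.8 and 23.9 CPM to 55.2 and 56.2 CPM (log2 fold change 1.26, SE 0.09, adjusted p = 2.8e-06). TSC22D3, a glucocorticoid-induced regulator, rose from 44 and 43.9 CPM to 97.3 and 116 CPM (log2 fold change 1.28, SE 0.10, adjusted p = 4.17e-06). IGFBP5, which binds insulin-like growth factors, rose from 9.31 and 8.64 CPM to 23.1 and 21.9 CPM (log2 fold change 1.33, SE 0.09, adjusted p = 2.07e-06). The other members of the 15 largest rises had log2 fold changes between 1.20 and 1.47, among them the neuronal glycoprotein GPM6A (1.47), prominin PROM1 (1.35), the growth factor PDGFD (1.29), the receptor modifier RAMP1 (1.29), the iron exporter SLC40A1 (1.28), the adhesion protein FLRT3 (1.23) and the potassium channel subunit KCNS3 (1.20).

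Several lists of the cell surface and of signalling had more higher than lower members. Of 74 extracellular matrix genes 33 were higher (44.6%, against 8.89% of all genes) and 9 lower (12.2%, against 15.4%), with a median log2 fold change of 0.46 and 27 to 35 higher over the alternatives. The lower members numbered 5 without replicate 2 of day 1 and 4 with the filter on the mean FPKM. In the WT line 47 of the 74 were higher and 3 lower (13.2% and 8.04% of all genes), and the Fn3nc* response was higher for 10 and lower for 27 (16.1% and 20% of all genes). Collagens COL14A1 (1.05), COL5A1 (1.05) and COL9A2 (1.07) were higher, while the matrix metalloproteinases MMP14 (-2.62) and MMP24 (-1.44) were lower. Of 59 axon guidance genes 27 were higher (45.8%) and 4 lower (6.78%), with a median of 0.48. The ligands SEMA3D (1.18) and SEMA3E (0.98) and NRP2 (0.90), a receptor of class 3 semaphorins, rose, and the ephrin receptors EPHA2 (-0.94) and EPHB3 (-1.64) fell. Of 50 genes of Wnt signalling 14 were higher (28.0%) and 4 lower (8.0%), with a median of 0.32. The ligand WNT5A rose from 37 and 38.7 CPM to 70.7 and 72.2 CPM (log2 fold change 0.92, SE 0.06, adjusted p = 1.72e-06), and the receptors FZD4 (1.11) and FZD9 (1.42) rose too, while the ligand WNT11 (-1.19) and the inhibitor DKK1 (-1.35) fell. Glypicans, syndecans and heparan sulfate enzymes had 8 higher (28.6%) and 1 lower (3.57%) of 28, the latter being SDC4, a syndecan (-0.73). These 3 lists rose in the WT line as well. There 22 of 59 axon guidance genes were higher and 1 lower, 18 and 0 of 50 Wnt genes, and 8 and 0 of the 28.

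The counts of the metabolic, mitochondrial and ribosomal protein lists moved with single libraries and with other settings. Of 29 cholesterol synthesis genes 5 were higher (17.2%, against 8.89% of all genes) and 1 was lower (3.45%, against 15.4%), and the list had 4 to 9 higher over the alternatives, 9 of them without replicate 1 of day 6. FASN, the fatty acid synthase, rose from 280.2 and 316 CPM to 581 and 465 CPM (log2 fold change 0.81, SE 0.12, adjusted p = 0.000329). Of 13 mitochondrially encoded mRNAs 6 were higher (46.2%) and none was lower. In this list 2 were higher without replicate 1 of day 6, 12 without replicate 2 of day 6, 3 without replicate 1 of day 1 and 2 when all 16 libraries were fitted together. MT-CO3, a subunit of cytochrome oxidase, shows this spread, with 624 and 678 CPM on day 1 and 1405 and 978 on day 6 (log2 fold change 0.87, SE 0.15, adjusted p = 0.000761). Of 78 cytosolic ribosomal protein genes 8 were higher (10.3%) and 1 was lower (1.28%), with 14 higher without replicate 1 of day 6, 2 without replicate 2 of day 6 and 5 without replicate 2 of day 1. Of 77 nuclear-encoded genes of the respiratory chain 4 were higher (5.19%, below the share of all genes) and none was lower. This count was 3 to 9 over the alternatives, with 9 without replicate 1 of day 6, 7 without replicate 1 of day 1, 7 without replicate 2 of day 2, 7 without each library of day 4 in turn, 7 with days 1 and 6 alone and 8 with all 16 libraries in the fit.

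The labelled cell type was read from markers. Of 8 genes listed for the HEK-293 line 7 were tested, with a summed level of 1214 to 1252 CPM on day 1 and 919 to 975 on day 6. Vimentin, VIM, had 618 and 582 CPM on day 1 and 492 and 542 on day 6, and the keratin KRT8 fell from 207 and 212 CPM to 106 and 106 CPM (log2 fold change -0.98, SE 0.06, adjusted p = 9.81e-07). KRT18, its partner, fell as well (-0.65), as did INA, a neuronal intermediate filament (-0.91). Of the 7 tested these 3 were lower (42.9%, against 15.4% of all genes) and 0 were higher. VIM, NEFL (0.08), EZR (-0.33) and PAX2 were not called. PAX2, a kidney factor, had 0.538 and 0.571 CPM on day 1 and 0.655 and 0.593 on day 6. Markers of other cell types were low throughout. No endothelial marker passed the FPKM minimum, and the markers tested summed to 4.27 to 4.44 CPM on day 1 and 0.19 to 0.54 on day 6 for hepatocytes (1 of 12 tested), 10.92 to 12.17 and 3.26 to 4.63 for blood cells (5 of 12), 8.03 to 8.13 and 6.81 to 8.23 for fibroblasts (2 of 10), and 2.99 to 3.23 and 5.99 to 7.51 for squamous epithelium (2 of 8). ALB, the defining gene of hepatocytes, had 19 and 33 counts on day 1 and 3 and 2 on day 6, and the pan-leukocyte marker PTPRC had 0 and 0 and then 1 and 0 counts. The fibroblast sum pooled a rise of LUM (1.69) with a fall of COL1A1 (-0.69). Among the fibroblast markers not tested, COL3A1 went from 13 and 30 to 105 and 100 counts and PDGFRB from 32 and 31 to 1 and 0. Over the 4 libraries 2 of 12 hepatocyte markers, 2 of 12 blood markers and 1 of 8 squamous markers were at 0 throughout. Of the 5 blood markers 4 were lower on day 6, against 15.4% of all genes, but only 1 with the filter on the mean FPKM. All were near the floor. For example CD79A of B cells, with 75 and 66 counts on day 1, fell from 2.52 and 2.22 CPM to 0.234 and 0.247 CPM (log2 fold change -3.27, SE 0.43, adjusted p = 0.000144). The part of these markers in the other results was not tested.

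The course was steepest at its start. By day 2, 792 genes were higher (4.18%) and 2027 lower (10.7%) than on day 1, and from day 2 to day 6, 122 were higher (0.645%) and 420 lower (2.22%). These comparisons share libraries with each other and with that of day 6 against day 1. For the 2920 lower genes the median log2 fold changes against day 1 were -0.66 on day 2, -0.89 on day 4 and -0.93 on day 6. For the 1683 higher genes they were 0.46, 0.60 and 0.66. Of the lower genes 1785 had been called lower by day 2, 406 were called lower on day 6 against day 2, 338 in both comparisons and 1067 in neither. Of the higher genes the numbers were 627, 74, 6 and 988. PPP1R15A fell in steps, at 165 and 194 CPM on day 2 and 38.2 and 40.4 on day 4. ATF4 was at 441 and 474 CPM on day 4, no higher than on day 6. Between days 2 and 6 PPP1R15A had a log2 fold change of -2.70 (adjusted p = 6.43e-07), EGR1 one of -1.01 (0.00877), CDKN1A one of -0.87 (0.000482) and COL21A1 one of 0.57 (0.0127). Over the same days the median log2 fold change was -0.33 for p53 targets, -0.14 for mitosis, -0.13 for DNA replication, -0.11 for splicing factors, -0.10 for zinc finger genes, 0.23 for extracellular matrix genes, 0.19 for axon guidance and 0.10 for Wnt signalling. Over these days 13 of 30 p53 targets and 29 of 479 zinc finger genes were called lower, and 6 of 74 extracellular matrix genes higher. In the rest few or no members were called. Lower were 1 of 59 mitosis genes, 1 of 78 splicing factors and 0 of 55 DNA replication genes, and no axon guidance or Wnt gene was higher. The medians of all these lists kept their direction when the day 1 libraries were not used, with smaller values. Others did not, since the median went from 0.22 for day 6 against day 1 to -0.03 for day 6 against day 2 in the ATF4 list, from 0.32 to -0.03 in the NRF2 list, from 0.21 to -0.04 in the cytosolic ribosomal proteins, from 0.11 to -0.08 in the respiratory chain and from 0.07 to -0.08 in the list of cyclins, CDK inhibitors and E2F factors. Genes that moved on days 2 and 4 and were back by day 6 were sought as means at least 2-fold beyond all libraries of days 1 and 6, and 2 clone-named genes were found. RP11-603J24.9 stood at 0 and 0 CPM on day 1, 13.9 and 20.1 on day 2, 9.0 and 15 on day 4 and 0 and 2.42 on day 6. Z83840.1 stood at 4.20 and 5.31 CPM on day 1, 1.40 and 0.374 on day 2, 0.964 and 1.49 on day 4 and 3.56 and 4.54 on day 6.

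Against the WT line on day 1 the called genes started away from it and ended near it. Set against the 2 WT libraries of day 1, on a common scale over all 16 libraries with a prior count of 2, the genes that fell stood at a median log2 difference of 0.96 on day 1 and 0.02 on day 6 of the Fn3nc* line. The genes that rose stood at -0.68 on day 1 and 0.04 on day 6, and all genes tested at 0.01 and 0.00. Of the 2920 lower genes 1410 were more than 1 above the WT line on day 1 and 147 on day 6. Of the 1683 higher genes 369 were more than 1 below it on day 1 and 14 on day 6. The 2 distances share the WT libraries, and since the genes were chosen for their change between the 2 days, no test was made of them. Among the lists, immediate-early factors went from 0.83 to -0.14, p53 targets from 0.58 to -0.23, zinc finger genes from 0.39 to 0.10, extracellular matrix genes from -0.43 to 0.05 and axon guidance genes from -0.36 to -0.06. The Fn3nc* libraries of day 1 were also deeper than the WT libraries of day 1, which held 23710518 and 22699111 counts, and the depth, the line and the transgene cannot be told apart in these distances.

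**Figure D4:**
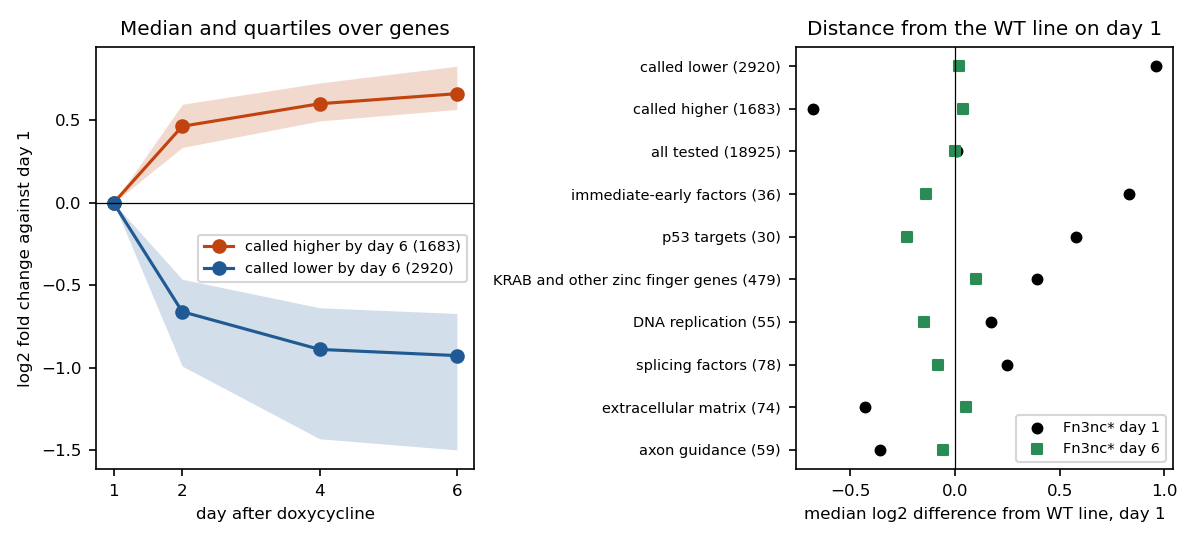
Left, median log2 fold change against day 1 with quartiles over the called genes on days 2, 4 and 6. Right, median log2 difference from the WT line on day 1 for gene groups on days 1 and 6 of the Fn3nc* line, where the called lower genes moved from 0.96 to 0.02.

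The same days were compared in the WT line. There 2495 genes were higher (13.2%) and 1522 lower (8.04%) on day 6 than on day 1, and the 2 comparisons share no library. Of the 1683 genes higher in Fn3nc* cells 498 were also higher in the WT line, which is 29.6% of the former and 20% of the latter list. Of the 2920 genes lower in Fn3nc* cells 319 were also lower in the WT line (10.9% of the former, 21.0% of the latter), and 340 were higher there. The median log2 fold changes in the WT line were 0.28 for the genes that rose and -0.07 for those that fell in Fn3nc* cells. The difference between the 2 responses was tested directly over all 16 libraries. At an adjusted p under 0.05 by edgeR's quasi-likelihood test, the Fn3nc* response was higher for 3040 genes (16.1%) and lower for 3784 genes (20%).

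The responses of single genes ran apart in several ways. PPP1R15A rose in the WT line from a mean of 12.7 to 25.5 CPM (log2 fold change 1.01, adjusted p = 5.27e-05), and its 2 responses differed by -5.15 on the log2 scale (SE 0.13, adjusted p = 4.09e-12). ATF4 had a log2 fold change of 0.56 there, with a difference of -1.81 (SE 0.09, adjusted p = 3.54e-09). SCN9A stood at 27.6 and 30.0 CPM in the WT line on days 1 and 6, with a log2 fold change of 0.12 and an adjusted p of 9.06e-07 for the difference. In these genes the WT line did not share the Fn3nc* change. TSC22D3 rose in both lines and more in the WT line (log2 fold change 2.85, adjusted p for the difference 2.45e-06). For COL21A1 the WT value was 1.54 and for GPM6A 1.84, and the differences between the lines, at adjusted p values of 0.636 and 0.199, did not pass. Of the 49 leading genes, that is the 15 largest rises and falls and the 10 largest of each in CPM, 36 had a response that differed between the lines. Over all genes the Fn3nc* response was higher for 16.1% and lower for 20%. The 49 genes were chosen for their Fn3nc* change, which is part of the difference tested, so a high count was favoured in advance.

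**Figure D5:**
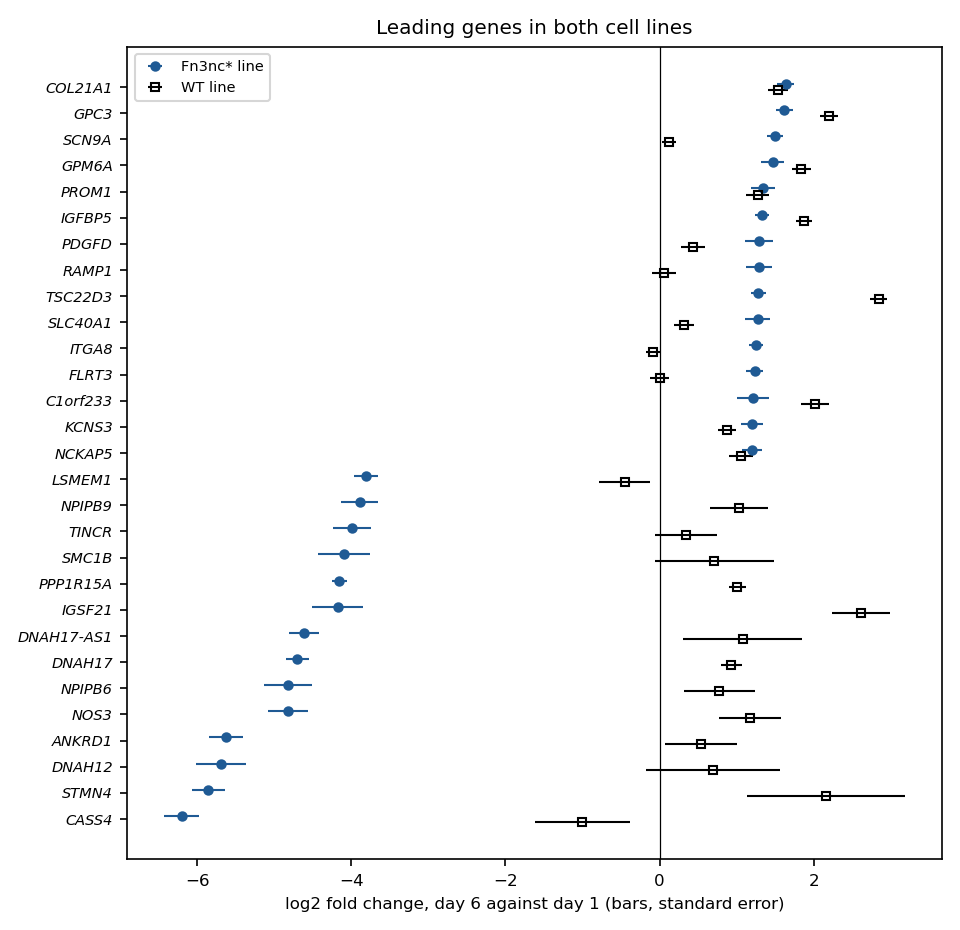
Log2 fold changes on day 6 against day 1 with standard errors for leading genes, in the Fn3nc* line and in the WT line. PPP1R15A lies at -4.16 in Fn3nc* cells and at 1.01 in the WT line, whereas COL21A1 lies at 1.64 and 1.54.

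The called genes were also described by their kind. Protein-coding genes were 72.3% of all tested, 89.8% of the higher and 81.7% of the lower ones. Among 254 transcribed unprocessed pseudogenes 28.7% were lower and 6.3% higher, and of 100 intergenic long noncoding RNAs 28 were lower and 9 higher, against 15.4% and 8.89% of all genes. The higher ones numbered 5 without replicate 1 of day 1, and the lower ones 17 with the filter on the mean FPKM. Among protein-coding genes split into 5 bins of mean level, the share called lower was 21.5%, 16.5%, 14.3%, 17.0% and 17.7% from the lowest bin to the highest, and the share called higher was 12.8%, 17.2%, 12%, 8.41% and 5.53%. The share called higher was thus largest in the second of these bins. The median effective length was 2089 bases for the higher genes, 1890 for the lower and 1884 for all tested.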

How the data were processed

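Poly(A) RNA of 16 samples was made into NEXTflex qRNA-seq libraries and sequenced as single-end reads. According to the submitters' processing notes the authors used STAR and RSEM 1.3.0 on GRCh37. The deposited table holds the authors' RSEM expected counts per gene and their FPKM values. The use of molecular tags and strand is not given there. For testing, the deposited expected counts were rounded, and the authors' FPKM values served only as a filter (above 1 in at least 1 library).

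Counts were analysed with edgeR 4.0.16 in R 4.3.3 (limma 3.58.1, Python 3.11.15 for annotation), by TMM scaling and the quasi-likelihood test. The 8 Fn3nc* libraries were fitted with a coefficient per day and no covariate, leaving 4 residual degrees of freedom. The 8 WT libraries were fitted separately, and the difference in response in a fit of all 16. Calls needed a Benjamini-Hochberg adjusted p under 0.05 together with a change of more than 0.5 on the log2 scale. The code was tested on simulated data.

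The text names, by rule, the 15 largest rises and falls at a mean count of at least 100, the 10 largest in CPM each way, up to 4 called members per gene list at a mean count of at least 50 with up to 2 in the other direction, genes at 0 on one of the days, transient genes, HCFC1, HCFC2, OGT and cell type markers, 292 genes in all, some of which are not reported here. The other markers named, ALB, PTPRC, COL3A1 and PDGFRB, belong to those lists. The comparison and the lists were chosen with earlier results of these data known. Coordinates are GRCh37, and promoters come from RefSeq on GRCh38.p14. Alternatives were DESeq2 size factors, DESeq2 1.42.0, other FPKM filters, other sets of libraries in the fit, a replicate block and leaving out each library. Depth sets the precision of low genes, and standard errors from the fit include the spread between libraries.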

Additional observations from a re-analysis of the deposited data

Results flagged for a closer look

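The change from day 1 to day 6 of doxycycline was compared between the cell lines by the interaction term of edgeR's quasi-likelihood test over 16 libraries. At an adjusted p under 0.05 it was higher in Fn3nc* cells for 3040 genes and lower for 3784. Every library was induced, and the days differed in the duration of doxycycline. The effects of doxycycline, of the transgene, of the line and of time in culture therefore cannot be told apart. The genes that fell in Fn3nc* cells stood at a median log2 difference of 0.96 from the WT line of day 1 on day 1 and 0.02 on day 6. The part of this distance in the differences was not tested. Of the 49 leading genes 36 differed, but they were chosen for their Fn3nc* change, which is part of the difference tested. The differences in log2 fold change, Fn3nc* minus WT, were -5.15 for PPP1R15A, -6.78 for IGSF21, -1.81 for ATF4, -5.99 for NOS3 and -5.62 for DNAH17. These 5 were picked from the 49 because they changed in opposite directions in the lines, so their opposite signs were set in advance. All 5 fell in both Fn3nc* libraries of day 6 and had positive log2 fold changes in the WT line, of 1.01, 2.61, 0.56, 1.17 and 0.93. Groups of 2 libraries were too small for a search for single outlying libraries.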

How the results depend on the processing

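The counts of day 6 against day 1 kept within 1.5 times of 1683 higher and 2920 lower under all alternatives. They were 1535 and 2513 by DESeq2, 1930 and 3203 without an FPKM filter, and 1687 and 2341 with the filter on the mean FPKM. No gene was called in the opposite direction under any alternative. Leaving out 1 library at a time gave 1402 to 1946 higher and 2559 to 2994 lower. For day 2 against day 1 the same gave 575 to 1164 higher and 1549 to 2005 lower, for day 6 against day 2 47 to 180 higher and 246 to 418 lower, and for the difference between the lines 2312 to 3450 and 3146 to 4040. The lone library left in an arm was then assumed to vary like the others. Of the 292 named genes between 0 and 27 lost their call while still tested in a given alternative, most often YARS. A further 32 were no longer tested with the filter on the mean FPKM and 7 with FPKM above 1 in 2 libraries.

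Same-numbered libraries did not deviate together, with correlations of their deviations from the group means between -0.214 and 0.105, so the numbers were not taken as pairs. With the replicate number as a block, 1614 genes were higher and 2829 lower on day 6 than on day 1, 759 and 1909 on day 2 than on day 1, 78 and 343 on day 6 than on day 2, and the difference between the lines had 2743 and 3594 genes. With this block the drop from 122 to 78 was the one beyond 1.5 times, and its cause was not tested. Leaving out single libraries also moved counts of day 6 against day 2 beyond 1.5 times, in both directions of change. The limits of the data are the 2 libraries per group, the unknown nature of the duplicates, the lack of an uninduced library and the deeper sequencing of day 1.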
